A study of Danio rerio with 12 samples.

Results

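Beclomethasone is a synthetic glucocorticoid, and its effect is described here over larvae with amputated and with intact tails. It was measured in pools of cells sorted as macrophages, which also held RNA of other cells, so a change cannot be assigned to macrophages alone. All 6 beclomethasone-treated samples were set against all 6 vehicle samples, which together are the 12 samples of the series. The treated groups were Amp+Beclo (amputated) and Beclo (not amputated), and the vehicle groups were Amp (amputated) and Control (not amputated), with 3 samples each. Beclomethasone was given at 25 µM, and the vehicle was 0.05% DMSO, in both cases from 2 h before the time of amputation and again after it. All larvae were zebrafish of the Tg(mpeg1.4:mCherry-F) line, in which the mpeg1.4 promoter drives a red fluorescent protein, amputated or left intact at 3 dpf. The red cells were sorted at 4 h post amputation, with actinomycin D present during dissociation to stop transcription, and each sample is a pool of 100 to 150 embryos. RNA sequencing reads were counted on 31962 Ensembl genes, of which 21979 had at least 60 reads over the 12 samples and were tested. The fit had a drug term, an amputation term and the replicate number, which the study's methods give as 3 replicate experiments. A gene was called when its edgeR adjusted p was below 0.05 and its fold change above 2. Symbols are those of the gene table, so that capitals mark a human-type name, and a gene that shares its symbol with another copy is given with its identifier.

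Glucocorticoids enter cells and bind the glucocorticoid receptor, which then moves to the nucleus and acts as a transcription factor. It raises transcription of genes with its binding sites, among them feedback and metabolic genes, and it lowers many inflammatory genes, largely by interfering with the factors NF-kB and AP-1. In macrophages, glucocorticoids are known for dampening cytokine and chemokine production.

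The samples held between 9488569 and 15161157 reads on genes with beclomethasone and between 10894542 and 18865019 with vehicle. Levels are given as CPM, the reads of a gene scaled to the TMM-normalized library size, and are not corrected for gene length. In every sample MPEG1 (ENSDARG00000055290), whose promoter marks the cells, and MFAP4 (ENSDARG00000088745), a second macrophage marker, were detected, at 169.9 CPM or more and 1137 CPM or more. Markers of other cells were also abundant. Muscle markers summed to between 29430 and 91850 CPM with beclomethasone and between 20310 and 153000 CPM with vehicle, keratinocyte markers to between 10240 and 24170 CPM and between 8498 and 36850 CPM, and the macrophage markers themselves to between 7483 and 24110 CPM and between 7243 and 34300 CPM. None of the 28 muscle or 21 keratinocyte markers tested was called, and among 31 macrophage markers only c1qa was. Of all genes tested, 0.951% were called, so few calls are the background for lists of this size. The median log2 fold change of the macrophage markers was -0.24 (-0.62 in amputated and 0.24 in intact larvae). It was -0.73 for 17 pigment cell markers, 5 of them lower at an unadjusted p below 0.05. For 16 erythroid markers it was -0.50, with 4 of them lower at that p, against 2.99% of all genes tested. For 17 neutrophil markers it was 0.34 (-0.12 in amputated and 0.635 in intact larvae). Of these, 4 were higher and 1 lower at that p, against 5.17% and 2.99% of all genes tested. Neutrophil markers summed to between 871 and 1373 CPM with beclomethasone and between 529 and 2076 CPM with vehicle. The part of neutrophils in rises of leukocyte genes was not tested. Pigment cell markers summed to between 145 and 319.5 CPM with beclomethasone and between 191 and 1707 CPM with vehicle. Erythroid markers summed to between 1079 and 3062 CPM and between 1548 and 7141 CPM. Amp 2 held the highest vehicle value of both, and the next were 428 CPM in Amp 3 and 4603 CPM in Control 2. Amp 2 and Amp 3 stood apart from the other samples on the first principal component, which held 28.5% of the variance, and Beclo 3 stood apart on the third. Genes that meet the rule for named genes and lost their call without Amp 2 and Amp 3 are therefore given with and without them. Genes outside that rule, such as STC1, and medians of gene lists are not. The p-values measure the spread between these pools of embryos.

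Most genes called over both wound states were higher with beclomethasone, while 50.9% of all genes tested had a log2 fold change above 0. Of the 21979 genes tested, 209 were called (0.951%, against 8.16% with an unadjusted p below 0.05), of which 192 were higher with beclomethasone (0.874% of genes tested) and 17 were lower (0.0773%). In bulk samples, fewer cells of a type and less RNA per cell cannot be told apart. The median log2 fold change of the 192 was 1.62, and 63 of them rose more than 4-fold and 23 more than 8-fold. The 17 lower genes had a median of -1.91, whereas the median over all genes tested was 0.01. In all 6 pairs of same-numbered samples of a wound state, 186 of the 192 and 16 of the 17 moved in the called direction, against 5.37% of all genes tested that moved the same way in 6 pairs. The 6 beclomethasone samples did not overlap with the 6 vehicle samples for 130 of the 192 genes, all above, and for 8 of the 17, all below, against 0.965% and 0.191% of all genes tested. These counts use the same contrast as the call and describe the called genes only. Of the raised genes, 47.4% had a mean log2 CPM of at least 5, against 24.5% of the genes tested. Abundant genes reach a call more easily, and the mean includes the treated samples, so this difference partly follows from the call. With the muscle marker level added to the model, 176 genes were called, and 170 of them were among the 209. Without Amp 2 and Amp 3, 187 genes were called, 178 up and 9 down, of which 140 were among the 209. Single libraries moved the count by over 1.5 times. It was 93 without Amp+Beclo 1, 134 without Amp 1, 139 without Amp 3, 107 without Beclo 2, 126 without Beclo 3, 105 without Control 1, 100 without Control 2 and 104 without Control 3.

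**Figure D1:**
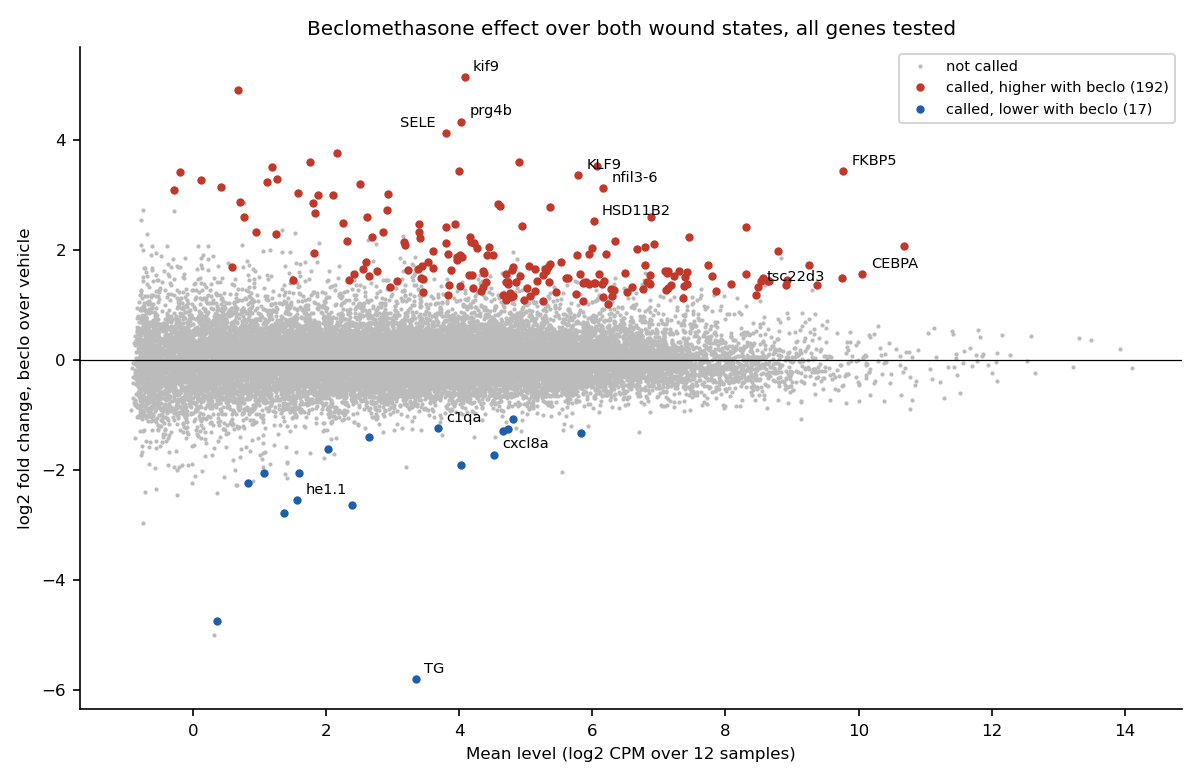
Log2 fold change of beclomethasone over vehicle (y axis) against mean level in log2 CPM over 12 samples (x axis) for the 21979 genes tested. Red points are the 192 genes called higher with beclomethasone, blue points the 17 called lower and grey points the genes not called. The called rises span low to high levels, with FKBP5 and CEBPA on the right, and the called falls lie at low to middle levels.

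Several known glucocorticoid receptor targets rose. FKBP5, a co-chaperone that binds the receptor complex and lowers its affinity for hormone, was at 1743, 1266 and 1101 CPM in Amp+Beclo and 2003, 1578 and 1878 CPM in Beclo. In vehicle samples it was at 189.8, 102 and 139.8 CPM in Amp and 215, 149 and 105 CPM in Control. Every treated sample was thus several times above every vehicle sample, a 10.7-fold rise (log2 3.43 ± 0.27 SE, edgeR adjusted p = 3.06e-05). FKBP5 was called under all 30 alternative settings, with log2 values from 3.32 to 3.53.

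KLF9, a zinc finger transcription factor, was at 93.5, 86.8 and 82.9 CPM in Amp+Beclo and 95.6, 113 and 123 CPM in Beclo. It was at 13.6, 4.16 and 6.14 CPM in Amp and 21.1, 9.54 and 10.7 CPM in Control. The treated samples lay close together and well clear of the vehicle samples, with a log2 fold change of 3.35 ± 0.30 (SE, edgeR adjusted p = 7.28e-05). DDIT4, an inhibitor of the growth kinase mTORC1, rose on a low level, with 2.34 to 5.97 CPM in the treated samples and 0.0568 to 1.11 CPM in the vehicle samples (11.3-fold, edgeR adjusted p = 0.00432).

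The gene for the leucine zipper protein known as GILZ, tsc22d3, which mediates part of the anti-inflammatory action of glucocorticoids in mammals, rose less. It was at 497, 448 and 264 CPM in Amp+Beclo and 717, 416 and 749.9 CPM in Beclo, against 133, 177 and 273 CPM in Amp and 225, 178 and 227 CPM in Control. Amp+Beclo 3 was slightly below Amp 3, so that the groups overlapped and 5 of 6 pairs rose (log2 1.33 ± 0.29, edgeR adjusted p = 0.0419). Of the 30 alternative settings, 12 called tsc22d3. CEBPA, a transcription factor of myeloid cells and hepatocytes, was at 1834, 1481 and 1213 CPM in Amp+Beclo and 1657, 1243 and 2094 CPM in Beclo. Its vehicle levels were 394, 741 and 759 CPM in Amp and 439.9, 654 and 335 CPM in Control. The groups did not overlap and the log2 fold change was 1.56 ± 0.31 (edgeR adjusted p = 0.0261). CEBPA was called under 18 of the 30 alternative settings.

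Of 54 known glucocorticoid-induced genes tested, 13 were called (24.1%, against 0.951% of all genes tested), all higher with beclomethasone. The median log2 fold change of the 54 was 0.55, against 0.01 over all genes. The list was chosen with earlier results of these data known, so the 24.1% is not independent evidence. Of the 54, 10 were called without Amp 2 and Amp 3, and 8 without these and Beclo 3. The 0.951% belongs to the fit of all samples and is not the background of these smaller fits. Beside the genes above, the 13 hold PER1 (ENSDARG00000056885) and PER2 of the circadian clock, CXCR4 (ENSDARG00000041959), and the metabolic genes described further on. The other 41 were not called. Among them DUSP1, a phosphatase that switches off MAP kinases, was at 1524 to 3697 CPM with beclomethasone and 1063 to 2867 CPM with vehicle (log2 0.58 ± 0.34, edgeR adjusted p = 0.741). The kinase gene sgk1 had a log2 fold change of 0.49 ± 0.29 (edgeR adjusted p = 0.741). Both overlapped between the groups.

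**Figure D2:**
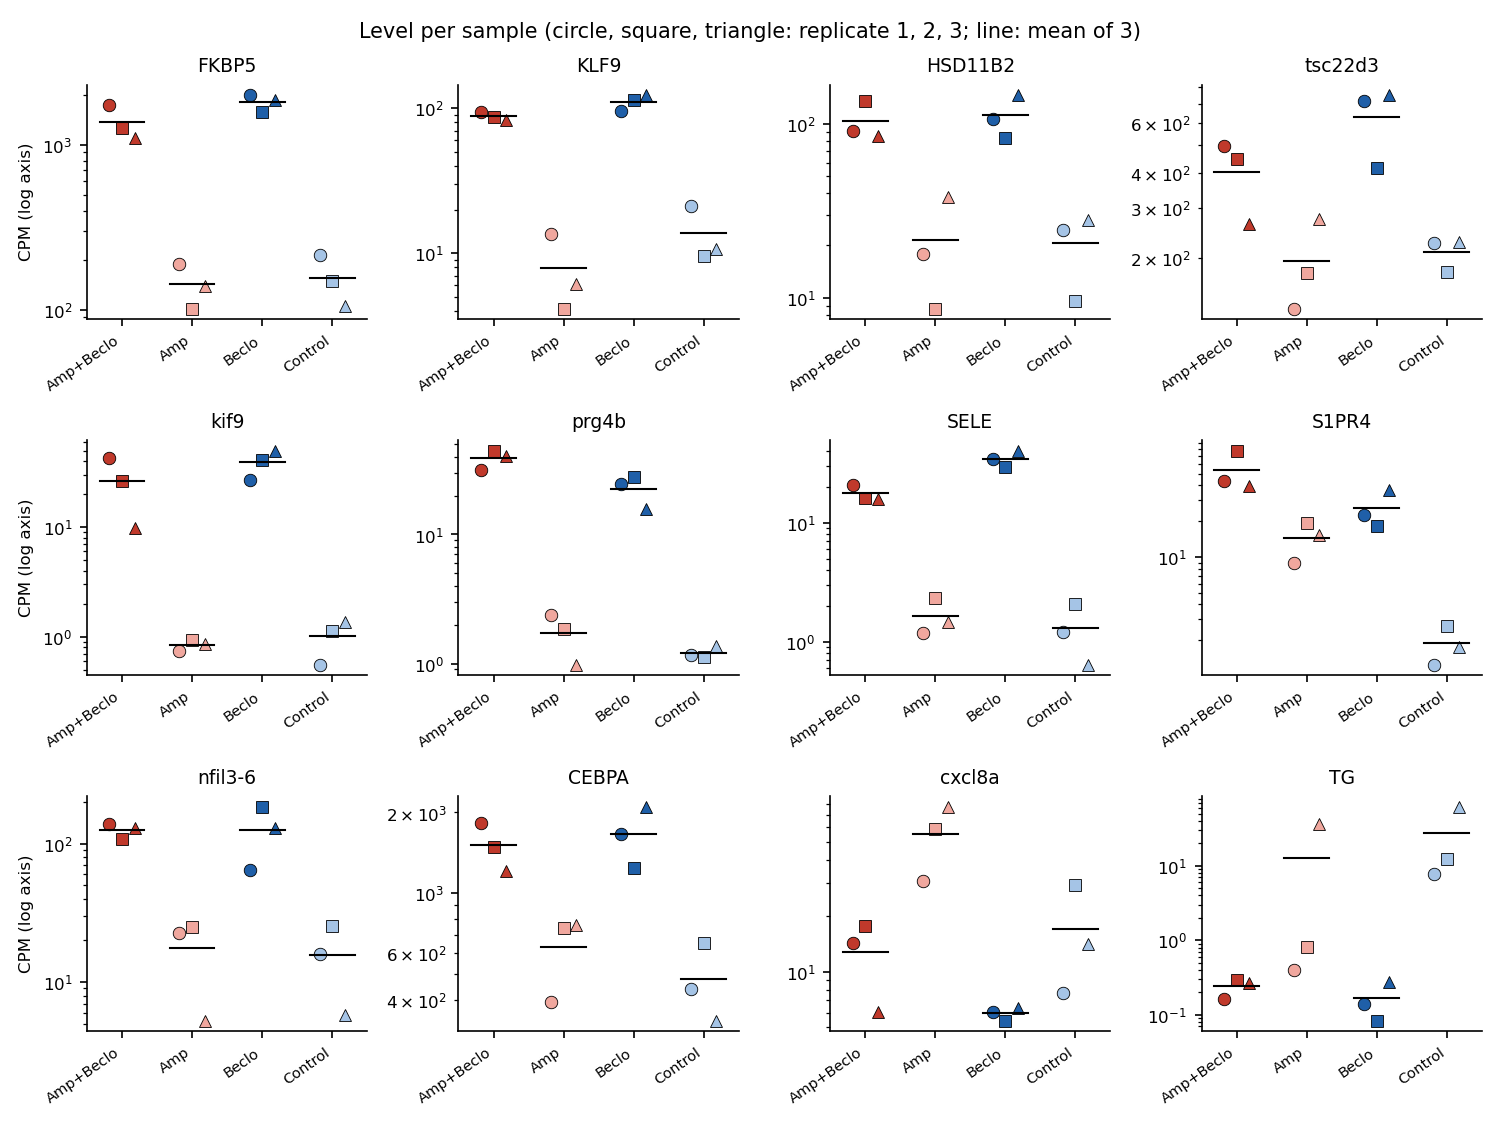
Level of 12 genes in each of the 12 samples, in CPM on log axes, with Amp+Beclo, Amp, Beclo and Control from left to right and symbols for the replicate number. Horizontal lines are means of 3 samples. FKBP5, KLF9, HSD11B2, kif9, prg4b, SELE, nfil3-6 and CEBPA are higher in every beclomethasone sample than in any vehicle sample, tsc22d3 and S1PR4 overlap, and cxcl8a and TG are lower with beclomethasone in each pair.

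The gene of the receptor itself was not called. NR3C1, the gene for the glucocorticoid receptor, was at 48.8 to 70.9 CPM with beclomethasone and 32.7 to 94.6 CPM with vehicle (log2 -0.08 ± 0.26 SE, edgeR adjusted p = 0.963). Of 21 genes of the receptor and of hormone handling tested, only FKBP5 and HSD11B2 were called (9.52%, against 0.951% of all genes tested). The median log2 fold change of the 21 was 0.14. HSD11B2 encodes the dehydrogenase that turns cortisol into inactive cortisone. It was at 91.2, 136 and 85.998 CPM in Amp+Beclo and 107, 82.8 and 147 CPM in Beclo. In Amp it was at 17.9, 8.66 and 38.1 CPM and in Control at 24.4, 9.54 and 28.0 CPM. All treated samples exceeded all vehicle samples, and the rise was 5.76-fold (log2 2.53 ± 0.33, edgeR adjusted p = 0.00166).

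A further gene of cortisol breakdown rose more than HSD11B2 did. The 20-beta-hydroxysteroid dehydrogenase gene hsd20b2, whose zebrafish enzyme reduces cortisone, was at 75.0, 49.4 and 57.3 CPM in Amp+Beclo and 24.2, 74.7 and 46.2 CPM in Beclo. It was at 6.87, 5.08 and 1.35 CPM in Amp and 6.64, 5.07 and 3.54 CPM in Control. The lowest treated sample was above the highest vehicle sample, and the log2 fold change was 3.59 ± 0.38 (edgeR adjusted p = 0.000358). Chosen after their values were seen, 3 more called genes act on steroids or supply electrons to the enzymes that do. SRD5A2 (ENSDARG00000043587), a steroid 5-alpha-reductase, had a log2 fold change of 2.79 ± 0.34, POR (ENSDARG00000059035), the electron donor of microsomal cytochromes P450, of 2.16 ± 0.32, and fdx1, the electron donor of mitochondrial ones, of 2.03 ± 0.30. All 3 were higher in each treated sample than in any vehicle sample.

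Some genes of the circadian clock rose as well. The clock is a feedback loop in which CLOCK and BMAL proteins drive the PER and CRY genes that repress them, with the nuclear receptors of the NR1D family and the bZIP factors NFIL3, TEF, DBP and HLF in side loops. Of 39 clock genes tested, 7 were called (17.9%), all higher with beclomethasone, against 0.874% of all genes tested. Of the 39, 17 had an unadjusted p below 0.05, all higher, and the median log2 fold change was 0.53. Of all genes tested, 5.17% had an unadjusted p below 0.05 and were higher. PER1 and PER2 stand in both lists, so the clock list and the list of glucocorticoid-induced genes are not separate evidence.

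Of the repressors, nfil3-6, a copy of NFIL3, rose most. It was at 139.6, 108 and 129 CPM in Amp+Beclo and 64.8, 183 and 131 CPM in Beclo, against 22.5, 25.1 and 5.28 CPM in Amp and 15.8, 25.4 and 5.799 CPM in Control. The groups did not overlap (log2 3.12 ± 0.39, edgeR adjusted p = 0.00127). The related nfil3-5 was not called, at 666 to 1372 unscaled reads with beclomethasone and 166 to 1906 with vehicle, and neither were NR1D2 and tefb. The nuclear receptor gene nr1d2a was at 147 to 264 CPM with beclomethasone and 24.0 to 61.8 CPM with vehicle (log2 2.11 ± 0.25, edgeR adjusted p = 0.00105), again without overlap. NR1D1 rose with overlap between the groups, at 43.3 to 159.7 CPM and 18.5 to 67.6 CPM (log2 1.39 ± 0.28, edgeR adjusted p = 0.0300).

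PER1 (ENSDARG00000056885) was at 6.59 to 24.3 CPM with beclomethasone and 0.809 to 6.77 CPM with vehicle with slight overlap (log2 2.22 ± 0.47, edgeR adjusted p = 0.0387), whereas the second copy, PER1 (ENSDARG00000012499), was at 27.8 to 51.8 CPM and 10.9 to 51.3 CPM (log2 0.40 ± 0.35, edgeR adjusted p = 0.86). The difference between the copies was not tested. PER2 rose with a log2 fold change of 1.54 ± 0.33, tefa with 1.16 ± 0.23 and CRY1 (ENSDARG00000045768) with 1.197 ± 0.25. Another copy, CRY1 (ENSDARG00000011583), was not called, at 122 to 268 unscaled reads with beclomethasone and 48 to 291 with vehicle. Without Amp 2 and Amp 3, 3 clock genes were called, nfil3-6, nr1d2a and PER2, and CRY1 (ENSDARG00000045768) was not. The adjusted p of edgeR was then 0.182 for PER1 (ENSDARG00000056885) and 0.0857 for NR1D1, and tefa had an adjusted p of 0.0265 at a log2 fold change of 0.97, under the fold threshold.

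**Figure D3:**
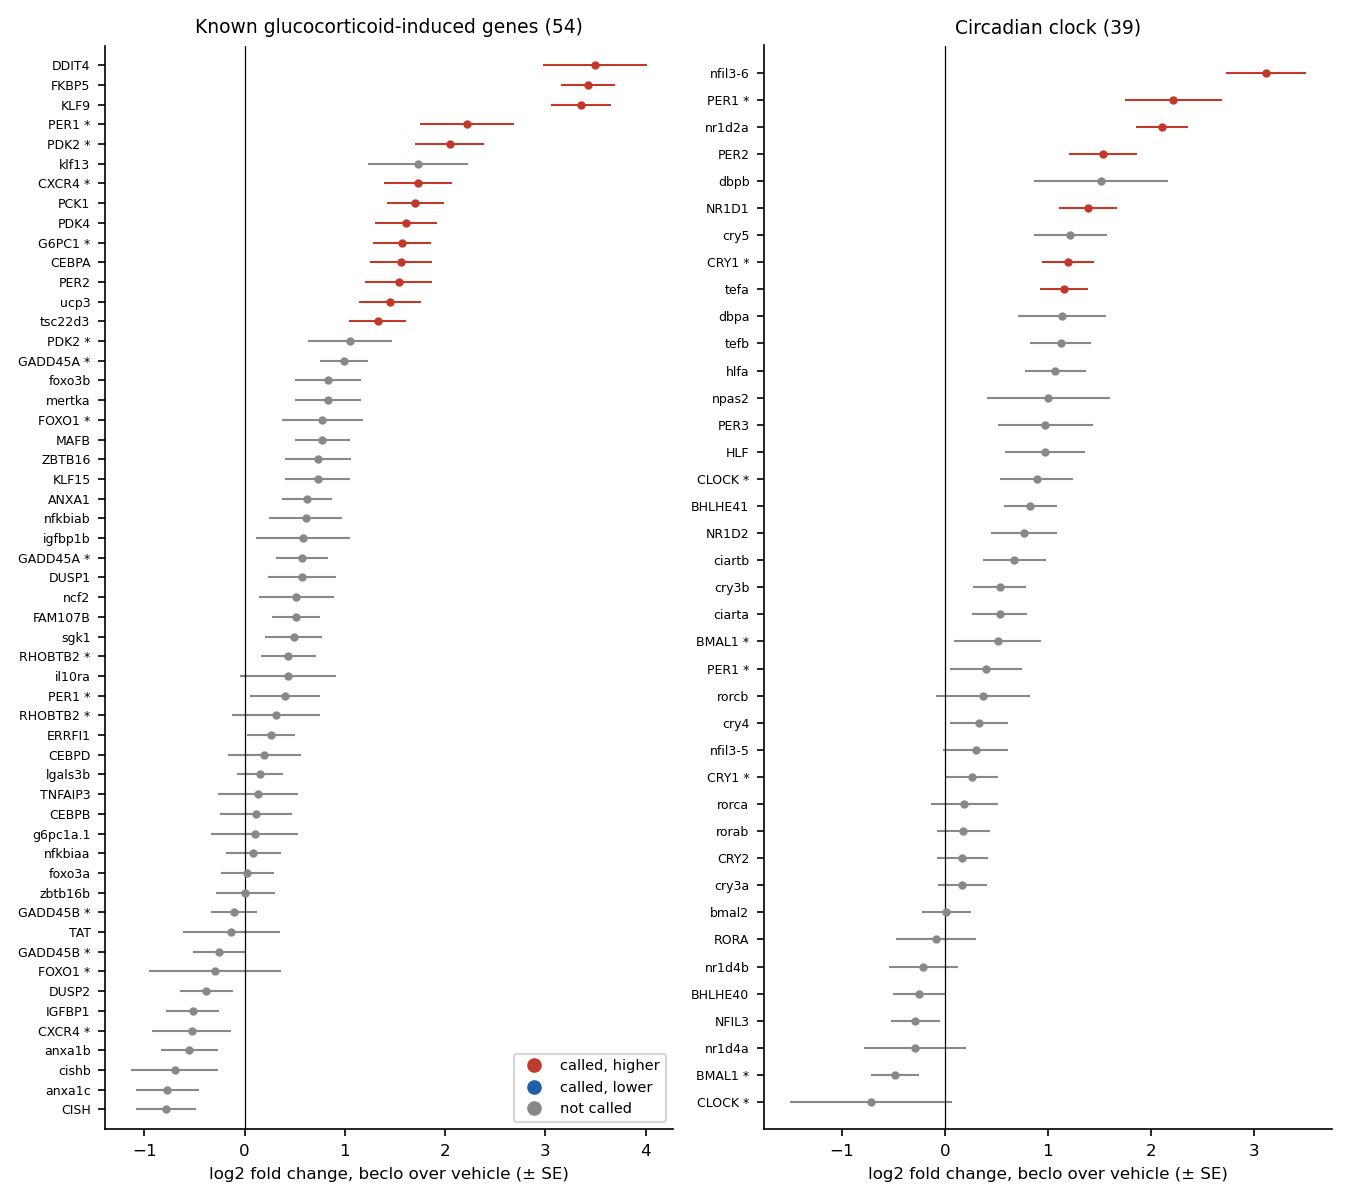
Log2 fold change of beclomethasone over vehicle with its standard error for the 54 known glucocorticoid-induced genes (left) and the 39 clock genes (right) tested, each ordered by size. Red marks the 13 and 7 genes called, grey the genes not called, and a star a gene that shares its symbol with another copy. Most points lie right of 0, and DDIT4, FKBP5, KLF9 and nfil3-6 are farthest to the right.

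Several of the raised genes control fuel use. PDK2 (ENSDARG00000059054) and PDK4 encode kinases that inactivate pyruvate dehydrogenase and so keep pyruvate out of the tricarboxylic acid cycle. This copy of PDK2 was at 184, 122 and 158 CPM in Amp+Beclo and 189, 166 and 228 CPM in Beclo, against 55.9, 86.3 and 19.7 CPM in Amp and 34.6, 53.4 and 27.0 CPM in Control (log2 2.05 ± 0.34, edgeR adjusted p = 0.00948). PDK4 was at 35.21 to 70.7 CPM with beclomethasone and 11.5 to 32.6 CPM with vehicle (log2 1.61 ± 0.30, edgeR adjusted p = 0.0188). Neither overlapped between the groups, and PDK4 had an edgeR adjusted p of 0.108 without Amp 2 and Amp 3. Another copy, PDK2 (ENSDARG00000020876), was not called, at 682 to 1371 unscaled reads with beclomethasone and 113 to 1812 with vehicle.

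The gluconeogenic genes PCK1 and G6PC1 (ENSDARG00000013721) rose too. PCK1 was at 6.45 to 29.7 CPM with beclomethasone and 1.90 to 5.90 CPM with vehicle (log2 1.70 ± 0.29, edgeR adjusted p = 0.00952). G6PC1 (ENSDARG00000013721) was at 18.95 to 54.7 CPM with beclomethasone and 7.22 to 13.4 CPM with vehicle (log2 1.57 ± 0.29, edgeR adjusted p = 0.0152). Both groups of 6 samples were separate for both genes. Both genes are abundant in liver. Of 21 hepatocyte and gut markers 0 were called, where 0.951% of all genes tested were. These markers summed to 190.4 to 869 CPM with beclomethasone and 268 to 745 CPM with vehicle. The part of liver cells in these rises was not tested.

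PFKFB4, an enzyme that controls the rate of glycolysis through a fructose bisphosphate signal, was at 212 to 419.7 CPM with beclomethasone and 51.1 to 183 CPM with vehicle (log2 1.52 ± 0.26, edgeR adjusted p = 0.0101). It was the only call among 45 glycolysis genes (2.22%, against 0.951% of all genes tested), whose median log2 fold change was 0.14. The related pfkfb4a was not called, at 203 to 406 unscaled reads with beclomethasone and 74 to 409 with vehicle. None of the 24 tricarboxylic acid cycle genes was called, where 0.951% of all genes tested were, and their median was -0.07. In amputated and intact larvae the medians were -0.569 and 0.415 for these genes, and -0.068 and 0.461 for the glycolysis genes. Over all genes tested they were 0.105 and -0.0046. The medians over both states thus average unlike values, and the difference between the states was not tested. The mitochondrial uncoupling protein gene ucp3 rose on a low level (log2 1.45 ± 0.31, edgeR adjusted p = 0.0399, 0.102 without Amp 2 and Amp 3). In the amino acid list, 2 of 30 genes were called (6.67%, against 0.951% of all genes tested). SLC3A2, the heavy chain of several amino acid transporters, had a log2 fold change of 1.17 ± 0.25, and SESN1, a sestrin that senses leucine and restrains mTORC1, of 1.02 ± 0.21. Without Amp 2 and Amp 3, SLC3A2 had an edgeR adjusted p of 0.069 and SESN1 a log2 fold change of 0.99, under the fold threshold.

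The largest rise of any called gene was that of kif9, a kinesin known from cilia and flagella. It was at 42.5, 26.3 and 9.91 CPM in Amp+Beclo and 26.7, 40.8 and 49.5 CPM in Beclo. In Amp it was at 0.738, 0.924 and 0.86 CPM and in Control at 0.557, 1.12 and 1.37 CPM. The gene was thus at 9.91 CPM or more in every treated sample and at 1.37 CPM or less in every vehicle sample (log2 5.14 ± 0.42, edgeR adjusted p = 3.06e-05).

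The gene prg4b, for a proteoglycan of the lubricin family, was at 31.8, 44.2 and 40.6 CPM in Amp+Beclo and 24.4, 27.9 and 15.8 CPM in Beclo. It was at 2.38, 1.85 and 0.983 CPM in Amp and 1.16, 1.12 and 1.37 CPM in Control. The treated samples were far above the vehicle samples, and the rise had the smallest adjusted p of all genes tested (log2 4.33 ± 0.30, edgeR adjusted p = 8.37e-06). Its relative prg4a, chosen after its values were seen, rose by a log2 of 1.82 ± 0.27.

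SELE, the gene for E-selectin, which in mammals is an adhesion molecule of activated endothelium, was at 20.9, 16.0 and 15.8 CPM in Amp+Beclo and 34.3, 29.1 and 39.8 CPM in Beclo. It was at 1.19, 2.31 and 1.47 CPM in Amp and 1.21, 2.06 and 0.644 CPM in Control, clear of the treated samples (log2 4.12 ± 0.38, edgeR adjusted p = 8.23e-05). None of the 16 endothelial markers was called, where 0.951% of all genes tested were. They summed to between 372 and 585 CPM with beclomethasone and between 277 and 502 CPM with vehicle. The part of endothelial cells in this rise was not tested.

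Coagulation factor gene f5 was at 106, 179 and 151 CPM in Amp+Beclo and 32.4, 171 and 99.0 CPM in Beclo, against 21.7, 7.16 and 10.8 CPM in Amp and 6.73, 8.68 and 6.69 CPM in Control. Beclo 1 was lowest of the treated samples and still above the vehicle samples (log2 3.52 ± 0.41, edgeR adjusted p = 0.000844). The laminin chain gene lamb3, known from epithelial basement membranes, was at 3.95 to 13.9 CPM with beclomethasone and 0 to 2.82 CPM with vehicle (log2 3.75 ± 0.52, edgeR adjusted p = 0.00278). Its integrin partners in epithelia, itga6b (log2 2.59 ± 0.32) and ITGB4 (log2 1.92 ± 0.37), were also called and were chosen after their values were seen. For ITGB4 the groups overlapped, at 551 to 1678 unscaled reads with beclomethasone and 76 to 638 with vehicle. The keratinocyte marker ranges given above overlapped between the groups, and their part in these rises was not tested.

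The ammonium channel gene RHCG (ENSDARG00000003203), which in fish serves ionocytes of the skin and gill, was at 8.63 to 57.6 CPM with beclomethasone and 0.809 to 4.79 CPM with vehicle (log2 3.43 ± 0.35, edgeR adjusted p = 0.000228). The other largest rises were of scarce transcripts. The T-box factor gene tbx3b was at 2.02 to 7.02 CPM and 0 to 0.86 CPM, zgc:173544 at 1.34 to 7.48 CPM and 0 to 0.369 CPM, and si:dkey-201c13.2 at 3.47 to 8.49 CPM and 0 to 1.02 CPM. Their log2 fold changes were 3.28, 4.91 and 3.59, with 6 of 6 pairs higher and no overlap. For the transporter genes slc22a7b.3 and slc2a11l (log2 3.27 and 3.23) the edgeR adjusted p was 0.0233 and 0.0370, and 0.108 and 0.0976 without Amp 2 and Amp 3.

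S1PR4, a sphingosine 1-phosphate receptor of leukocytes, was at 43.4, 77.4 and 39.3 CPM in Amp+Beclo and 22.6, 18.3 and 36.9 CPM in Beclo. It was at 8.92, 19.4 and 15.4 CPM in Amp and 1.25, 2.66 and 1.77 CPM in Control. Within each wound state the treated samples were separate from the vehicle samples, although Amp 2 was above Beclo 2 (log2 2.82 ± 0.40, edgeR adjusted p = 0.00278). The effect was larger in intact larvae (log2 3.85) than in amputated ones (log2 1.90), with an unadjusted interaction p of 0.0032 and an edgeR adjusted p of 0.451, so that the difference did not pass.

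CXCR4 (ENSDARG00000041959), a receptor for the chemokine CXCL12, was at 999, 466.5 and 360.02 CPM in Amp+Beclo and 1479, 1022 and 1200.5 CPM in Beclo, against 228, 325 and 83.8 CPM in Amp and 408, 640.01 and 160.3 CPM in Control. Each pair rose, and the groups overlapped (log2 1.73 ± 0.34, edgeR adjusted p = 0.0240). This copy was called under 17 of 30 alternative settings, with an edgeR adjusted p of 0.123 without the replicate block. The scarce second copy, CXCR4 (ENSDARG00000057633), had a log2 fold change of -0.53 ± 0.39 (edgeR adjusted p = 0.825). S1PR4 and CXCR4 (ENSDARG00000041959) were the 2 calls among 31 chemotaxis and adhesion genes (6.45%, median log2 0.34). CXCR4 was also the only call among 24 repair-type macrophage genes (4.17%, median log2 0.28). Of all genes tested, 0.951% were called.

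SOCS3 (ENSDARG00000025428), a feedback inhibitor of cytokine receptors, was at 124 to 262 CPM with beclomethasone and 49.2 to 111 CPM with vehicle, without overlap (log2 1.40 ± 0.25, edgeR adjusted p = 0.0152). It was the only call among 29 NF-kB and cytokine feedback genes (3.45%, against 0.951% of all genes tested), whose median was 0.14 on the log2 scale. The unnamed gene ENSDARG00000104400 had nearly the same levels, at 125 to 265 CPM and 45.4 to 117 CPM, with a correlation of 0.995 to SOCS3 over the 12 samples, so reads of the pair may not be independent. The caspase inhibitor gene xiap was at 49.3 to 131 CPM with beclomethasone and 21.6 to 35.9 CPM with vehicle (log2 1.57 ± 0.27, edgeR adjusted p = 0.0112). Among 22 apoptosis genes (median log2 -0.02) xiap was the only call (4.55%, against 0.951% of all genes tested).

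Of 44 inflammatory mediators tested, 1 was called higher and 2 lower, against 0.874% and 0.0773% of all genes tested. The median log2 fold change of the 44 was -0.06. The median was -0.29 in amputated and 0.09 in intact larvae, against 0.105 and -0.0046 over all genes tested in amputated and intact larvae. At an unadjusted p below 0.05, 10 were lower and 3 higher, against 2.99% of all genes tested that were lower and 5.17% that were higher. The neutrophil chemoattractant gene cxcl8a was at 14.4, 17.7 and 6.03 CPM in Amp+Beclo and 6.09, 5.45 and 6.39 CPM in Beclo. It was at 30.9, 58.6 and 77.1 CPM in Amp and 7.66, 29.2 and 14.0 CPM in Control. Each treated sample was below its vehicle partner, and the groups overlapped, since Control 1 and Control 3 lay below the 2 highest Amp+Beclo samples (log2 -1.72 ± 0.36, edgeR adjusted p = 0.0355). Of 30 alternative settings, 13 called cxcl8a. The chemokine gene ccl35.1 was at 6.30 to 23.3 CPM with beclomethasone and 20.8 to 72.2 CPM with vehicle (log2 -1.26 ± 0.28, edgeR adjusted p = 0.0487). Without Amp 2 and Amp 3 no mediator was called lower, with an edgeR adjusted p of 0.0925 for cxcl8a and 0.118 for ccl35.1.

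ALOX5AP, which presents arachidonic acid to 5-lipoxygenase for leukotriene synthesis, was the mediator that rose, at 152, 104 and 55.3 CPM in Amp+Beclo and 107, 65.9 and 55.03 CPM in Beclo. It was at 72.9, 77.2 and 19.2 CPM in Amp and 26.5, 37.5 and 9.26 CPM in Control (log2 1.40 ± 0.29, edgeR adjusted p = 0.0347). Every pair rose, and Amp 1 and Amp 2 reached into the treated range. ALOX5AP was called under 13 of 30 alternative settings, with an edgeR adjusted p of 0.341 without the replicate block.

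The classic cytokine genes were not called over the 2 wound states. For tnfa, the levels were 1.21, 2.84 and 1.62 CPM in Amp+Beclo and 0.567, 0.335 and 0.73 CPM in Beclo, against 1.14, 20.6 and 17.9 CPM in Amp and 0.186, 3.01 and 1.61 CPM in Control. Amp 2 and Amp 3 were far above all other samples (log2 -1.71 ± 0.60, edgeR adjusted p = 0.361), and the log2 fold change without them was -0.80. The log2 fold change was -0.11 ± 0.28 for il1b, -0.38 ± 0.39 for il6 and -0.38 ± 0.32 for the gelatinase gene MMP9, with edgeR adjusted p between 0.852 and 0.957. These values average the 2 wound states and do not measure the drug effect in amputated larvae alone. In its sequencing data the study compared each group with Control and reports that beclomethasone attenuated the amputation-induced change of tnfa, il1b and il6. It also measured sorted macrophages by quantitative PCR, where beclomethasone attenuated the rise of il6 and il1b. There tnfa did not rise significantly with amputation, but was lower with amputation and drug than with amputation alone. In a tnfa reporter line, the study found a lower percentage of positive macrophages at the wound with beclomethasone.

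**Figure D4:**
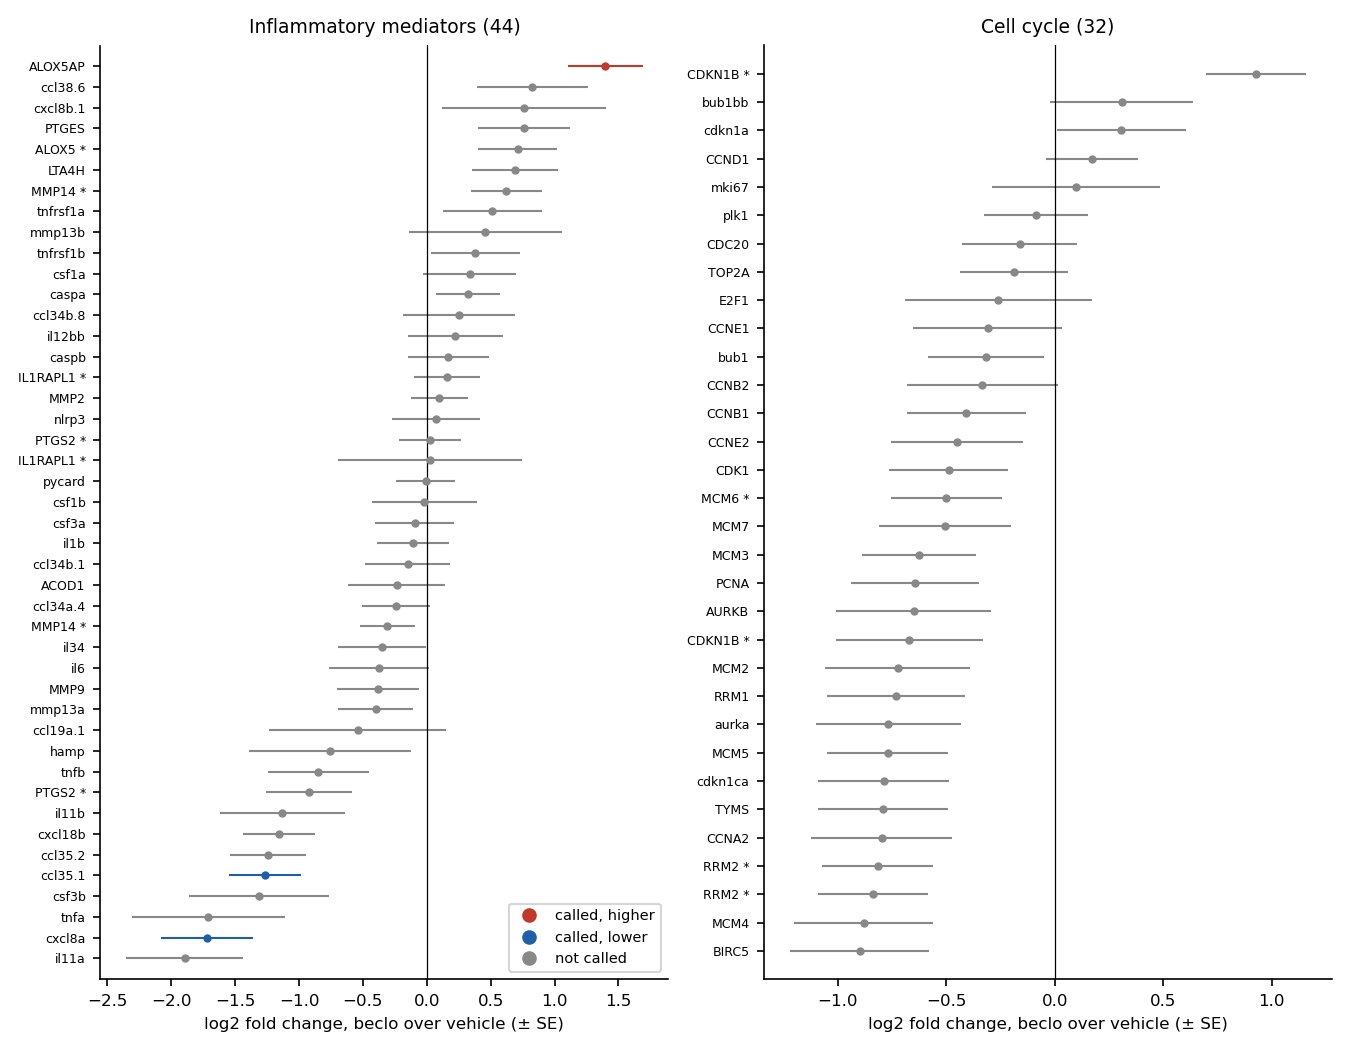
Log2 fold change of beclomethasone over vehicle with its standard error for the 44 inflammatory mediators (left) and the 32 cell cycle genes (right) tested, ordered by size. Red is called higher, blue called lower and grey not called, and a star marks a gene that shares its symbol with another copy. The mediators spread to both sides of 0 with ALOX5AP at the top and cxcl8a near the bottom, and 27 of the 32 cell cycle genes lie left of 0 with none called.

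The remaining falls were few and mostly of scarce transcripts. TG, the gene for the thyroid hormone precursor thyroglobulin, was at 0.161, 0.293 and 0.27 CPM in Amp+Beclo and 0.142, 0.0838 and 0.274 CPM in Beclo. It was at 0.398, 0.809 and 36.6 CPM in Amp and 7.76, 12.5 and 61.2 CPM in Control. The treated samples were all low and even, while the vehicle samples spread widely, up to 61.2 CPM, without touching them (log2 -5.80 ± 0.82, edgeR adjusted p = 0.00278). The gene is made by thyroid follicles and not by macrophages, and no list of thyroid markers was examined.

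The hatching enzyme genes he1.1 and he1.2, expressed by the hatching gland of the embryo, were at 0.323 to 1.55 CPM and 0 to 1.34 CPM with beclomethasone, and at 2.09 to 12.6 CPM and 1.31 to 11.4 CPM with vehicle. The log2 fold changes were -2.55 ± 0.46 and -2.78 ± 0.60, with 6 of 6 pairs lower in both. They are close copies whose reads may be shared, so their separate values are uncertain. The scarce ctslb.4 of the cathepsin L family also fell (log2 -2.24 ± 0.46), while the family member ctsl.1, named after its values were seen, rose to 1128 to 4385 CPM with beclomethasone, against 192 to 1076 CPM with vehicle (log2 2.07 ± 0.38, edgeR adjusted p = 0.0166).

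GNG10, a G protein gamma subunit, was at 1.80 to 13.3 CPM with beclomethasone and 13.5 to 49.3 CPM with vehicle, without overlap (log2 -1.91 ± 0.38, edgeR adjusted p = 0.0277). CDCA7, which takes part in maintaining DNA methylation in dividing cells, was at 23.0 to 43.4 CPM and 52.2 to 116 CPM, again without overlap (log2 -1.34 ± 0.29, edgeR adjusted p = 0.0416). The complement gene c1qa, made by tissue macrophages, was at 3.51 to 13.5 CPM and 9.50 to 27.2 CPM, with overlap (log2 -1.24 ± 0.27, edgeR adjusted p = 0.0430). PPP1R3C (ENSDARG00000071005), which directs a phosphatase to glycogen, fell by 1.40 on the log2 scale. The gene ppp1r3c2a, of a related name and chosen after its values were seen, was called higher. It had 257 to 363 unscaled reads with beclomethasone and 20 to 139 with vehicle. Of the falls, zgc:113232 fell by 1.62 and a gene with a clone-based symbol (ENSDARG00000068947) by 2.64 on the log2 scale. The other genes called lower, LANCL1 (log2 -1.29), cyb5r1 (log2 -1.08), STC1 (ENSDARG00000058476) and 2 genes without a symbol, lie outside the rule for named genes and were chosen after their values were seen. STC1, the hormone stanniocalcin, was at 0 to 0.183 CPM with beclomethasone and 0 to 12.7 CPM with vehicle, where the highest value was Amp 3 and the next 0.886 CPM. Without Amp 2 and Amp 3, 6 of the 12 named falls and 28 of the 37 named rises were still called, and c1qa, CDCA7, ctslb.4 and he1.2 had an edgeR adjusted p of 0.0942, 0.0634, 0.0517 and 0.102.

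Most other gene groups held no call. Of all genes tested, 0.951% were called. At that share a list of 13 to 44 genes would mostly hold no call, so these counts say little about the groups. None was called among 28 AP-1 and immediate-early factors (median log2 -0.21), 24 Toll-like receptor signaling genes (0.32), 18 interferon response genes (-0.21), 17 antigen presentation genes (-0.43), 44 lysosome and phagocytosis genes (0.07), 34 lipid handling genes (0.12), 26 sterol synthesis genes (0.11), 23 heat shock genes (-0.00091) and 13 mitochondrially encoded genes (0.34). The heat shock median was -0.386 in amputated and 0.313 in intact larvae. At an unadjusted p below 0.05, 5 antigen presentation genes were lower and 0 higher, and 3 interferon response genes were lower and 1 higher. At that p, 5 Toll-like receptor signaling genes were higher and 0 lower. Of all genes tested, 2.99% were lower and 5.17% higher at that p. The 32 cell cycle genes had a median of -0.50, with 13 lower at an unadjusted p below 0.05, against 2.99% of all genes tested, and none called. Their median was -0.97 in amputated and -0.14 in intact larvae. Apart from the medians in intact larvae, these figures use the amputated vehicle samples that stood apart from the others. They are not given without those samples, so how far the lower values rest on them was not tested. The pigment cell markers (-0.83 in amputated, -0.32 in intact larvae) and erythroid markers (-0.83 and -0.06) also had medians below 0 in both wound states, and their part in the cell cycle values was not tested. These genes were not called one by one, and no test of the lists was run.

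The effect was also estimated within each wound state, from samples that the other state does not use, in 1 fit with shared replicate terms and spread. In amputated larvae (Amp+Beclo against Amp) 25 genes were called, or 0.114% of those tested, 23 of them higher (0.105%) and 2, STC1 and GNG10, lower (0.0091%). DESeq2 called 799 in amputated larvae, 326 higher and 473 lower, so that the balance of directions turned. In intact larvae (Beclo against Control) 40 genes were called, or 0.182%, 39 of them higher (0.177%) and 1, TG, lower (0.00455%). These counts rest on few libraries. The count in amputated larvae was 12, 10 and 9 without Amp+Beclo 1, 2 or 3, 13 without Control 1 or Control 3, 9 without Amp 2, 2 without Amp 3 and 2971 without Amp 1, which leaves Amp 2 and Amp 3 as the vehicle samples. The count in intact larvae was 20 without Beclo 1, 15 without Beclo 3, and 9, 5 and 6 without Control 1, 2 or 3.

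Genes chosen in one wound state moved the same way in the other. All 23 genes called higher in amputated larvae were higher in intact larvae, with a median log2 fold change of 3.03 in amputated and 2.43 in intact larvae, and all 23 had an unadjusted p below 0.05 in intact larvae, where 3.36% of all genes tested were higher at that p. All 39 genes called higher in intact larvae were higher in amputated larvae, with medians of 2.16 in amputated and 2.82 in intact larvae, and 37 of them had an unadjusted p below 0.05 in amputated larvae, where 7.91% of all genes were. The 14 genes called in both states had the same sign, and 160 of the 209 were called in neither state alone. Over all 21979 genes the correlation of the log2 fold changes in the 2 states was 0.00297, across genes that share libraries and are not independent replicates.

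No gene passed the test of a different drug effect in amputated and intact larvae. The smallest edgeR adjusted p of the interaction was 0.451, and 2390 genes (10.9%) had an unadjusted p below 0.05, while DESeq2 called ADAMTS3, tcnba, si:dkey-6n3.3, si:ch73-359m17.9 and ENSDARG00000093712, none of them among the 209. Among the 209 called genes, 9 (4.31%) had an unadjusted interaction p below 0.05, although genes called over both states are selected for like effects. A p that misses the threshold does not show that the effects were equal. For FKBP5, with a log2 fold change of 3.26 in amputated and 3.59 in intact larvae, the difference was -0.33 ± 0.49 (SE). For kif9, with 4.97 in amputated and 5.29 in intact larvae, it was -0.32 ± 0.79.

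**Figure D5:**
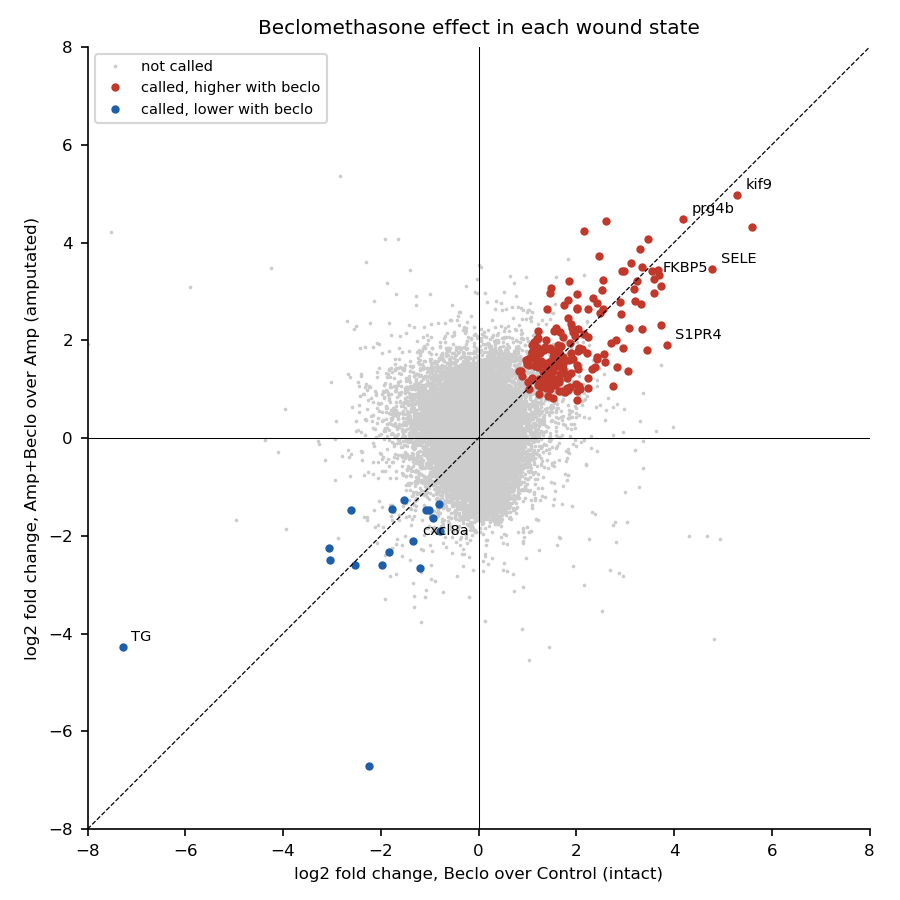
Log2 fold change in amputated larvae (Amp+Beclo over Amp, y axis) against that in intact larvae (Beclo over Control, x axis) for the genes tested. Red and blue points are the 192 and 17 genes called over both states, grey points the others, and the dashed line marks equal effects. The called genes lie in the upper right and lower left, a place that their choice on both states favors, and the grey cloud shows no slope.

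The 209 calls are not 209 separate signals. Of the raised genes, 9 with clone-based names (si:dkey-56m19.6, si:ch211-136a14.2, si:dkeyp-116a7.2, si:ch211-209p16.4, si:ch73-308b14.1, si:ch211-265g21.1, si:dkey-193e13.8, si:ch211-184m19.3 and si:dkey-29l4.4) were alike in every sample, with correlations of log2 CPM between 0.988 and 0.999 over the 12 samples, which share library and depth. The median over all pairs of called genes was 0.705. The 9 log2 fold changes lay between 1.37 and 1.59, and without these genes 183 rises remain. Close copies of a sequence can share reads in such counts, so these genes are uncertain as separate entries. Of the 209, 16 had no symbol in the gene table and 32 only a clone or project name. Of these, si:ch73-52f24.4, which RefSeq lists as a long non-coding RNA and which was chosen after its values were seen, was at 325 to 739.8 CPM with beclomethasone and 51.5 to 168 CPM with vehicle (log2 2.41 ± 0.33, edgeR adjusted p = 0.00221).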

How the data were processed

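The authors deposited raw counts, reads per Ensembl gene for each of the 12 samples, made from SMART-seq V4 libraries without molecular identifiers, sequenced at 50 nt and mapped with TopHat2 2.1.0 to GRCz10 (annotation 80). The counting program is not given in the sources used here. The study tested with DESeq 1.26.0. Reads outside genes made up 4.72% to 12.6% and were left out. Here, edgeR 4.0.16 in R 4.3.3 was used (TMM, glmQLFit, glmQLFTest, Benjamini-Hochberg adjustment over all genes tested), with replicate number and amputation as additive terms. The fit was first run on simulated counts with the same spread for all genes, no amputation effect and no sample standing apart. That run therefore does not cover these features of the data. Genes needed 60 reads in all, the study's 30 over 6 samples carried over to 12. The effects within a wound state came from a fit of 4 groups with the same block. Each standard error was derived from the log2 change and the F value of its test. Log2 CPM used a prior count of 2. Alternatives used DESeq2 1.42.0 and limma 3.58.1. Symbols were matched for 26121 of 31962 identifiers, and 4140 genes share theirs.

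Replicate numbers pair the samples through the 3 replicate experiments of the study's methods. Deviations from group means correlated at a mean of 0.142 between same-numbered samples and -0.0719 between others. Deviations sum to 0 within a group, so the second value largely follows from the first. For the 6 drug pairs of one wound state the mean was 0.0434 (-0.177 to 0.247). Samples of 1 group differed by more than sampling noise (chi-square over degrees of freedom between 20.8 and 165). Named genes are the 15 largest rises and 10 largest falls with a symbol and the same sign in 6 pairs, the called members of the receptor, induced-gene and mediator lists with 13 preset genes, and up to 4 called members of each other list. Members and lists were chosen with earlier results of these data known.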

Additional observations from a re-analysis of the deposited data

Results flagged for a closer look

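The levels of the named genes were checked for a sample far from the other 5 of its 6, and 4 of 116 such groups (3.45%) held one, where chance gives about 1 in 20. The gene f5 was at 32.4 CPM in Beclo 1 and at 99.0 to 179 CPM in the other beclomethasone samples. For zgc:173544, Amp 3 was at 0.369 CPM, and the other vehicle samples were at 0 to 0.0859 CPM. PCK1 was at 1.90 CPM in Control 1 and at 4.88 to 5.90 CPM in the other vehicle samples. NR1D1 was at 67.6 CPM in Control 2 and at 18.5 to 29.6 CPM in the other vehicle samples.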

How the results depend on the processing

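The count of genes called over both wound states was 209. It was 114 with no replicate block, 67 in a test against a fold change of 1.5, 103 with a block for each of the 6 pairs, and 401 with DESeq2 (331 higher, 70 lower, 208 of the 209 among them). It ranged from 93 to 259 when single libraries were left out, and from 18 to 60 when a replicate number was. The other settings gave counts within 1.5 times. The count in intact larvae (40) was 25 with no replicate block, 84 without a low-count filter, 25 with 10 reads required in every sample, 17 against a fold of 1.5, 199 with DESeq2 and 70 without Amp 2 and Amp 3, and ranged from 5 to 59 without single libraries and 0 to 8 without a replicate number. The count in amputated larvae (25) was 15 with no replicate block, 74 without a low-count filter, 11 against a fold of 1.5, 65 from its 6 samples alone and 799 with DESeq2 (326 higher, 473 lower), and ranged from 2 to 2971 without single libraries and 0 to 16 without a replicate number. The interaction count (0) was 5 with DESeq2 and 0 to 2 without single libraries. The cause of these changes was not tested.

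Of the named genes, no called gene changed sign under an alternative. The values near 0 did. When a replicate number or a single library was left out, the log2 fold change ranged from -0.47 to 0.087 for il1b, from -0.87 to 0.16 for il6, from -0.21 to 0.92 for PER1 (ENSDARG00000012499) and from -0.23 to 0.11 for NR3C1. With a covariate for reads outside genes il1b was at 0.12 and il6 at 0.025. Without Amp 2 and Amp 3 il1b was at 0.17, il6 at 0.078 and PER1 (ENSDARG00000012499) at -0.092, and without these and Beclo 3 il1b was at 0.11 and PER1 at -0.026. The alternatives without Amp 2 and Amp 3 or with the muscle markers were chosen after seeing the data. Without the block 31 of the 49 called named genes were still called, and with DESeq2 48. PER2 was called under 13 of 30 alternatives, with an edgeR adjusted p of 0.161 without the block, and SOCS3 (ENSDARG00000025428) under 18 of 30. Depth limits scarce genes, as zgc:173544 rests on 0 to 3 reads in each vehicle sample.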
